A study of Homo sapiens with 8 samples.

Results

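The atypical cadherins of the FAT, Dachsous and CELSR families and their kinase FJX1 were described by 7 genes, FAT1, FAT2, FAT4, DCHS1, CELSR1, CELSR2 and FJX1, out of 19775 genes with a probe set of their own on the array. A probe set counted when the platform annotation gave it only 1 of these symbols, which held for 11 of 41091 probe sets with 1 symbol, and each gene was read from the probe set chosen by its mean log2 level, the highest over the 8 arrays. The mean level is given as a description, while the differences between groups played no part in that choice. All 7 genes lay above the filter on dim probe sets, a mean log2 value of 4.46, and were tested among 14180 genes.

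Transcripts were measured on 8 Affymetrix arrays, 2 in each of 4 groups, from KYSE30 and KYSE180, both established human esophageal squamous cell carcinoma lines. Cells of each line had passed through 4 rounds of transwell selection, in which cells migrate through a porous membrane, and were grown for 2 passages after harvest without any further agent named in the labels. The groups 30D and 180D are the cells that passed the membrane, labelled as more motile, and 30U and 180U are those that stayed behind, labelled as less motile. Every U subline shared its parental population with 1 D subline, so the 4 populations, 2 per line, are the independent units, and neither unselected parental cells nor normal esophageal cells are among the groups. The comparisons ask which of these transcripts differed between the D and U cells of a line, whether both lines changed alike, and how the lines differed.

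Atypical cadherins are very large membrane proteins with many extracellular cadherin repeats. DCHS1 on one cell binds FAT4 on its neighbour, and FJX1, the relative of Drosophila four-jointed, belongs to a family of Golgi proteins that phosphorylate cadherin repeats and so tune this binding. In Drosophila the Fat and Dachsous pair feeds into the Hippo kinases, which restrain YAP and its TEAD partners, and into planar cell polarity, the coordinated orientation of cells in a sheet. CELSR proteins, relatives of Drosophila Flamingo, are the cadherins of the core polarity complex and act with Frizzled, VANGL and PRICKLE proteins. FAT1 is among the genes recurrently mutated in esophageal squamous cell carcinoma.

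The median of each array was 5.02 to 5.04, and arrays of 1 group correlated at 0.997 to 0.998 against 0.860 to 0.869 between the lines. On the array of 180D replicate 1 the 3′ signal of the ACTB control exceeded its 5′ signal by 1.92, against 1.06 to 1.42 on the other 7 arrays. The 18S rRNA control of that array read 11.20, against 12.15 to 12.50 on the other 7. The squamous label was checked on 8 measured markers. In KYSE30 KRT14, a basal keratin, lay below the filter value on all 4 arrays (3.45 to 4.27) and KRT5, its partner, lay close to it (4.48 to 4.84). There PKP1 straddled it (4.18 to 5.05), and DSG3, DSC3, SOX2, SFN and ITGB4 were above it. In KYSE180 all 8 markers were above it.

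Of the 7 genes, FAT4 rose in the motile cells of KYSE180, and FAT2 fell and CELSR1 rose in those of KYSE30. Between the lines 5 of the 7 differed, near the share of all genes that did, 67.1%. No gene passed the threshold within both lines. The changes of FAT4, FAT2 and CELSR1 also differed between the lines by the test of the difference itself. For CELSR1 this call was lost without the filter or with the parental population fitted as a block. All changes are log2 differences with the SE of the limma fit from 2 arrays per group, the threshold is a Benjamini-Hochberg adjusted p of 0.05 over all 14180 genes, and a bulk measurement cannot tell fewer expressing cells from less RNA per cell.

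**Figure D1:**
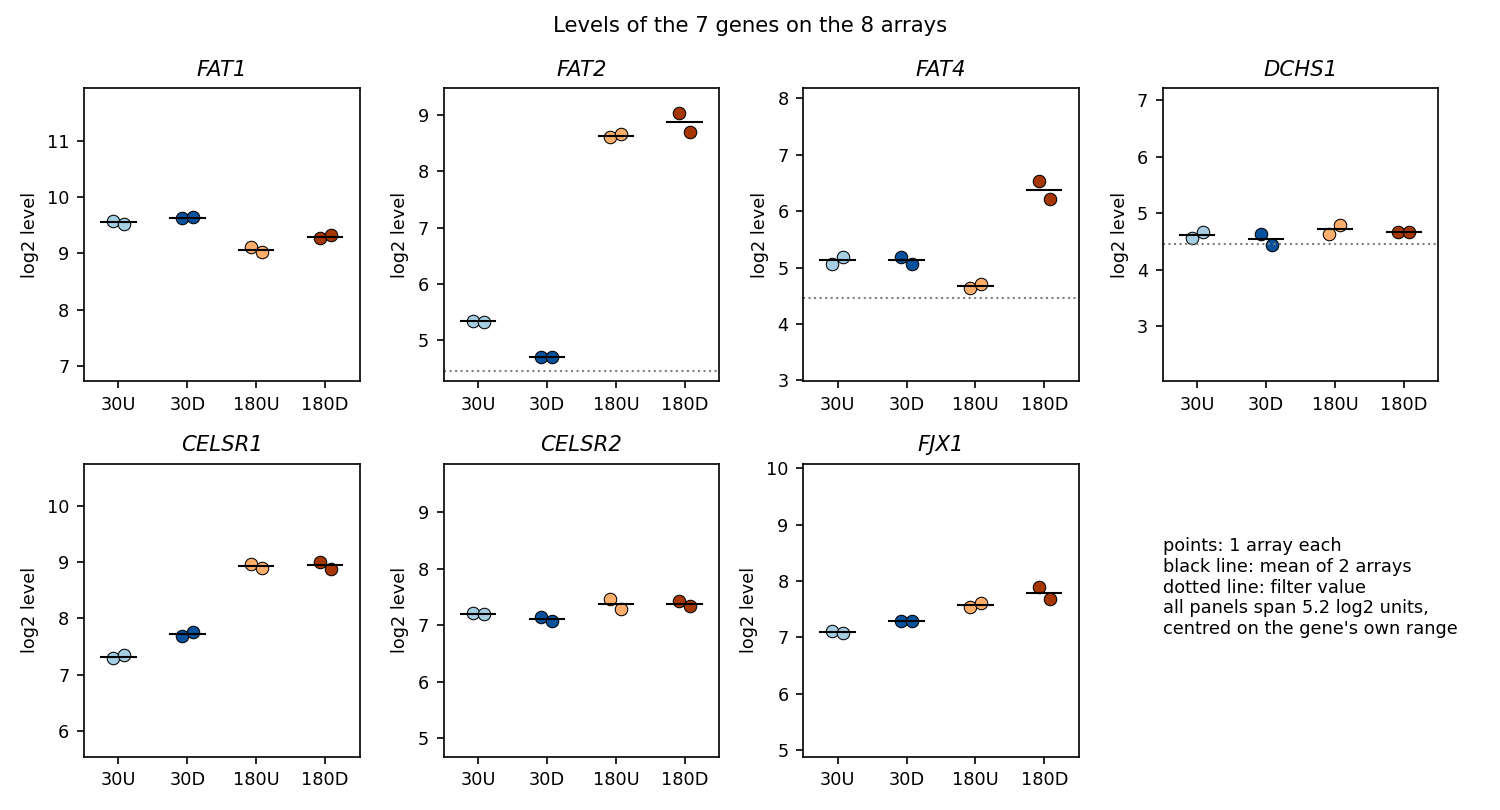
Log2 levels of the 7 genes on each of the 8 arrays, by group. Points are arrays, 2 per group, black lines are group means and the dotted line is the filter value of 4.46. FAT4 is high in 180D, FAT2 and CELSR1 part the lines, and DCHS1 lies near the filter value throughout. Heights can be compared within a panel, not between panels, since each gene has its own probe set.

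FAT4, the human relative of Drosophila Fat and the receptor for DCHS1, showed the largest change from U to D among the 7 genes. Its log2 level was 4.63 and 4.70 in 180U and 6.53 and 6.22 in 180D. In KYSE30 it was 5.07 and 5.19 in 30U and 5.18 and 5.07 in 30D. The 180D arrays thus lay above all 6 others, the 180U arrays lay below all others and close to the filter value, and the KYSE30 groups overlapped completely.

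FAT4 rose 3.27-fold in KYSE180 (1.71 ± 0.10, limma adjusted p = 0.000288), the ninth largest change in size among all genes tested in that line. The rise was 1.59 in one pair of sublines from a shared parental population and 1.83 in the other. In KYSE30 the change was -0.01 ± 0.10, with a 95% interval from -0.25 to 0.24, and the changes of the lines differed by 1.72 ± 0.15 (adjusted p = 0.000894). Without the array of 180D replicate 1 the rise was 1.56 (adjusted p = 0.00191). A single probe set represents FAT4, so no second probe set could be set against it.

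Because of this change FAT4 had no fixed order between the lines. Over both fractions together the lines differed by 0.39 ± 0.31 (adjusted p = 0.29). Between the U groups alone FAT4 was lower in KYSE180 (-0.46, adjusted p = 0.00268), and between the D groups alone it was higher, by 1.25 (adjusted p = 0.000544). The order of the groups was 180U, then 30D and 30U, which did not differ beyond the spread of their arrays, then 180D. The summed level of markers of fibroblasts, cells in which FAT4 is also expressed, was higher in 180D than in 180U, with COL1A1 changing most. The log2 of the summed level of the 10 markers was 8.37 and 8.41 in 180U and 8.81 and 8.63 in 180D, against 8.07 to 8.26 in KYSE30. In each group 4 of the 10 lay above the filter value, and 1 of these 4 passed the threshold in KYSE180. The means in 180U and 180D were 7.25 and 7.84 for COL1A1 and 4.97 and 5.19 for DCN. They were 5.24 and 5.34 for PDGFRB and 5.72 and 5.74 for THY1. COL1A2, COL3A1, LUM, POSTN, FAP and PDGFRA lay below the filter value on all 8 arrays. The part of these markers in the FAT4 result was not tested.

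DCHS1, the Dachsous ligand, did not follow FAT4. Its log2 level was 4.63 and 4.79 in 180U and 4.67 and 4.66 in 180D, and 4.56, 4.66, 4.63 and 4.44 in 30U and 30D. These values straddle the filter value closely, the groups of each line overlapped, and a dim signal limits what could be seen. The change was -0.05 ± 0.09 in KYSE180 (adjusted p = 0.803, 95% interval -0.25 to 0.15) and -0.07 ± 0.09 in KYSE30 (adjusted p = 0.616, 95% interval -0.27 to 0.13). The lines differed by 0.11 ± 0.06 (adjusted p = 0.133). The other DCHS1 probe set was below the filter, with a mean of 3.86.

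FJX1 moved little but the same way in every pair of sublines. Its log2 level was 7.12 and 7.07 in 30U, 7.28 and 7.29 in 30D, 7.53 and 7.60 in 180U, and 7.89 and 7.68 in 180D. The U and D arrays overlapped in neither line, and the 4 groups lined up as 30U, 30D, 180U and 180D. Of all genes 64.7% in KYSE30 and 44.6% in KYSE180 had no such overlap either. The change was 0.19 ± 0.08 in KYSE30 (adjusted p = 0.139) and 0.22 ± 0.08 in KYSE180 (adjusted p = 0.182), so it passed the threshold in neither line. Without 180D replicate 1, the array with the higher ACTB 3′ excess, the KYSE180 change was 0.11, and without 180D replicate 2 it was 0.32. The changes of the lines differed by 0.03 ± 0.11, with a 95% interval from -0.22 to 0.28. FJX1 was 1.4-fold higher in KYSE180 (0.48 ± 0.06, adjusted p = 6.62e-05).

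FAT1 lay far above the filter value on all 8 arrays and did not pass the threshold between U and D in either line. FAT1 is a giant cadherin of the plasma membrane whose cytoplasmic tail binds the Ena/VASP regulators of actin at cell contacts and leading edges. Its log2 level was 9.58 and 9.53 in 30U, 9.63 and 9.64 in 30D, 9.11 and 9.02 in 180U, and 9.27 and 9.32 in 180D. The arrays of U and D did not overlap in either line, as for 64.7% of all genes in KYSE30 and 44.6% in KYSE180. Every KYSE30 array lay above every KYSE180 array. FAT1 was 1.33-fold lower in KYSE180 (-0.42 ± 0.05, adjusted p = 0.000116).

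The change of FAT1 was 0.08 ± 0.06 in KYSE30 (adjusted p = 0.41) and 0.23 ± 0.06 in KYSE180 (adjusted p = 0.0807), where it passed the threshold with a stricter filter (adjusted p = 0.0439) or an intensity trend in the variance (adjusted p = 0.0153). FAT1 and FJX1 were higher in D in 4 of 4 pairs of sublines, as were 12.9% of all genes tested. A comparison of D with U over both lines together, added after these values were seen, gave 0.15 ± 0.05 for FAT1 (adjusted p = 0.22) and 0.20 ± 0.06 for FJX1 (adjusted p = 0.153). None of the 7 genes passed the threshold in it, against 124 of all genes, 0.874%, and 0 once the parental population was blocked. By limma the unadjusted p was under 0.05 for 4 of the 7, FAT1, FAT4, CELSR1 and FJX1. CELSR1, at an unadjusted p of 0.0436, ranked 2074 of 14180 genes, so many other genes were under 0.05 too.

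FAT2, a cadherin of stratified epithelia whose Drosophila relative acts in collective cell migration, had the largest difference between the lines and fell in the motile cells of KYSE30. Its log2 level was 5.34 and 5.33 in 30U, 4.71 on both 30D arrays, 8.61 and 8.65 in 180U, and 9.03 and 8.70 in 180D. Both 30D arrays lay below both 30U arrays and on average 0.26 above the filter value, and all KYSE180 arrays lay far above all KYSE30 arrays. The fall in 30D was 1.54-fold (-0.62 ± 0.10, adjusted p = 0.00796), with -0.63 and -0.61 in the pairs of sublines.

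In KYSE180 FAT2 changed by 0.24 ± 0.10 (adjusted p = 0.263), and by 0.07 without 180D replicate 1, the array with the higher ACTB 3′ excess, against 0.40 (adjusted p = 0.0269) without 180D replicate 2. The changes of the lines differed by 0.86 ± 0.14 (adjusted p = 0.0115). FAT2 was 13.2-fold higher in KYSE180 than in KYSE30 (3.72 ± 0.17, adjusted p = 1.82e-07). Of the 8 squamous markers 6 were higher in KYSE180, ITGB4 was lower (-1.46 ± 0.06) and SFN did not pass the threshold, and the log2 of their summed level was 13.10 to 13.21 in KYSE30 and 14.82 to 15.05 in KYSE180. In KYSE30, where FAT2 fell, 2 of the 8 had a negative and 2 a positive change past the threshold, and 4 did not pass. The mean of SOX2, a transcription factor of squamous cells, was 9.80 in 30U and 7.86 in 30D, and that of the desmosomal cadherin DSC3 was 6.82 and 5.53. SFN, stratifin, went from 12.60 to 12.84, and KRT14, from 3.54 to 4.13, stayed below the filter value, so no change is read from it. The summed level was 13.10 and 13.11 in 30U and 13.21 and 13.20 in 30D, and the part of these markers in the FAT2 results was not tested.

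The RefSeq promoter table of build GRCh38.p14 held 4 of the 7 genes, FAT1, FAT2, CELSR2 and FJX1. The windows of FAT2, with the largest difference between the lines, and of FAT1, with the opposite sign between them, are shown because they differ in CG pairs, the sites that DNA methylation can mark. Each covers 250 bases before the annotated start on the minus strand, written 5′ to 3′, with every CG pair in capitals. The FAT2 window lies at chr5:151591332-151591581 and the FAT1 window, that of 1 of its 2 listed starts, at chr4:186726697-186726946.
FAT2: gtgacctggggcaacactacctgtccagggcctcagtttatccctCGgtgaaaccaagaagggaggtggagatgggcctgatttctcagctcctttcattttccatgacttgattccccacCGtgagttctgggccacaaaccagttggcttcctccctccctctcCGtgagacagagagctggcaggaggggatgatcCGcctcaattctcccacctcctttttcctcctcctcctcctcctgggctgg
FAT1: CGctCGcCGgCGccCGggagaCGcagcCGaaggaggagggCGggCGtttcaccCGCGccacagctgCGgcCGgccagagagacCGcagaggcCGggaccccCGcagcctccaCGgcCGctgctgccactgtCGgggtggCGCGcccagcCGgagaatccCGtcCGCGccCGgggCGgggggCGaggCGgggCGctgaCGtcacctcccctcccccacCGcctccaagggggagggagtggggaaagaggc
The FAT2 window holds 4 CG pairs at 56.8% GC, and 34.3% of 35116 windows of this length hold as many or fewer. The FAT1 window holds 32 at 78.0% GC, with 91.9% of windows at as many or fewer, and the median window holds 11. CELSR2 and FJX1 hold 23 and 22. These counts describe the reference sequence, and no methylation or binding was measured here.

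CELSR1, a Flamingo cadherin of the core polarity complex, was higher in KYSE180 and rose in the motile cells of KYSE30. Its log2 level was 7.29 and 7.35 in 30U, 7.68 and 7.76 in 30D, 8.97 and 8.90 in 180U, and 9.00 and 8.88 in 180D. The groups of KYSE30 did not overlap, those of KYSE180 did, and the lines were fully apart. The rise in 30D was 1.32-fold (0.40 ± 0.06, adjusted p = 0.00774), with 0.39 and 0.41 in the pairs of sublines. It kept its size but missed the threshold without 30U replicate 1 (0.37, adjusted p = 0.0591) and without 30D replicate 2 (0.36, adjusted p = 0.06).

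In KYSE180 CELSR1 did not pass the threshold (0.00 ± 0.06, adjusted p = 0.981, 95% interval -0.15 to 0.16). The difference of the changes was -0.40 ± 0.09 (adjusted p = 0.0343), and this call was lost once the parental population was blocked (adjusted p = 0.0779) and without any 1 of 7 arrays, all but 180D replicate 1 (adjusted p from 0.0612 to 0.121). CELSR1 was 2.67-fold higher in KYSE180 (1.42 ± 0.09, adjusted p = 1.1e-06). Its other 2 probe sets had means of 4.44 and 4.31, both below the filter. Their changes in KYSE30 were 0.17 and 0.15, with adjusted p over all probe sets of 0.494 and 0.721, and their line differences were 0.06 (adjusted p = 0.558) and 0.45 (adjusted p = 0.0126).

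CELSR2, the second Flamingo relative, had no change past the threshold within a line and a small difference between the lines. It read 7.21 and 7.19 in 30U, 7.14 and 7.07 in 30D, 7.46 and 7.28 in 180U, and 7.42 and 7.34 in 180D. All KYSE180 arrays lay above all KYSE30 arrays by a small margin, and 180U and 180D overlapped. The change was -0.10 ± 0.07 in KYSE30 (adjusted p = 0.405) and 0.01 ± 0.07 in KYSE180 (adjusted p = 0.953), with 95% intervals from -0.27 to 0.07 and from -0.16 to 0.18. The line difference was 0.22 ± 0.06 (adjusted p = 0.00826), which missed the threshold on the other CELSR2 probe set (0.21 ± 0.09, adjusted p over all probe sets = 0.0711) and between the U groups alone (0.16, adjusted p = 0.122).

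**Figure D2:**
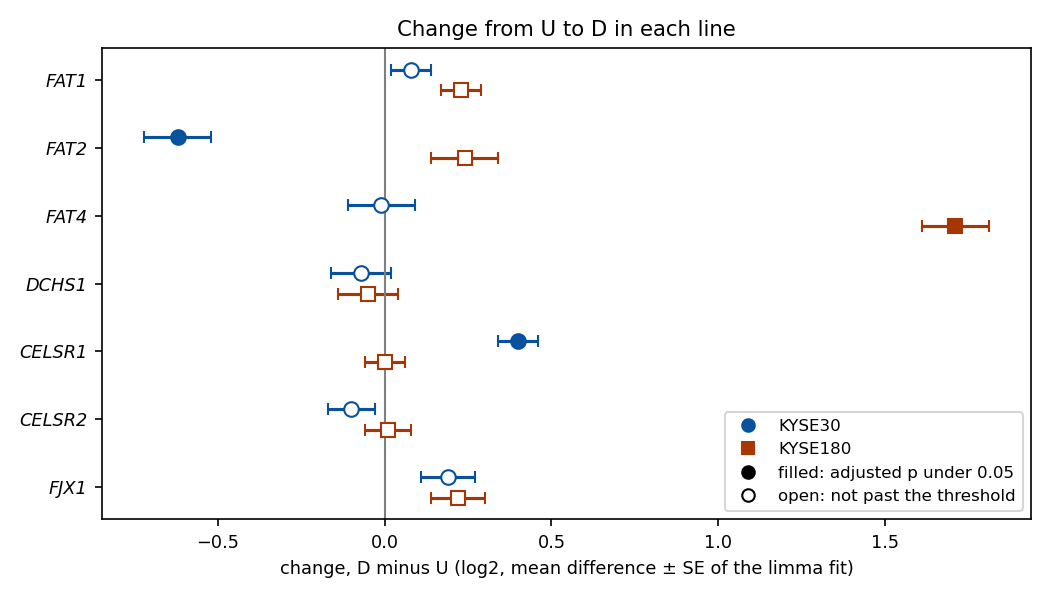
Change from U to D (D minus U, log2) of the 7 genes in KYSE30 (circles) and KYSE180 (squares), with the SE of the limma fit as bars and 2 arrays per group. Filled symbols passed an adjusted p of 0.05. FAT4 stands at 1.71 in KYSE180 and -0.01 in KYSE30, FAT2 at -0.62 and CELSR1 at 0.40 in KYSE30.

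In KYSE30 2 of the 7 genes passed the threshold, 1 higher and 1 lower in D, against 16.5% of all genes, 8.42% higher and 8.12% lower. In KYSE180 1 of the 7 passed, higher in D, against 3.75% of all genes, 2.55% higher and 1.21% lower. For the difference of the changes 3 of the 7 passed, 2 higher and 1 lower in KYSE180, against 12.2% of all genes, 6.94% higher and 5.21% lower. Between the lines 5 of the 7 passed, 4 higher and 1 lower in KYSE180, against 67.1% of all genes, 36.1% higher and 31.0% lower. The share between the lines is thus near that of all genes, and the counts in each line rest on 1 or 2 genes. U and D arrays did not overlap for 5 of the 7 in KYSE30 and for 4 of 7 in KYSE180, where 64.7% and 44.6% of all genes did not. The median change of the 7 was -0.01 in KYSE30 and 0.22 in KYSE180, beside 0.01 and 0.02 over all genes. Once the parental population was blocked, 230 genes in place of 532 passed in KYSE180 and 1011 in place of 1723 for the difference of the changes, with FAT4 kept in both and FAT2 in the second. With each array centred on its median, 269 genes were higher and 236 lower in 180D in place of 361 and 171.

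The 3 remaining genes of the families were read beside these. CELSR3, the third Flamingo relative, was 1.45-fold lower in KYSE180 (-0.53 ± 0.05, adjusted p = 1.4e-05), opposite in sign to CELSR1 and CELSR2, and its other probe set gave -0.64. CELSR3 did not pass within a line, with changes of 0.08 in KYSE30 and 0.04 in KYSE180. FAT3 and DCHS2 lay below the filter, with means of 3.25 and 3.34 on their brightest probe sets. FAT3 read 3.78 and 4.65 in 30U and 3.06 and 3.07 in 30D, and since all but 1 of its arrays lay below the filter value no change was read from it.

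The genes with the most similar pattern over the 8 arrays, by Pearson's r of log2 values, are given as a description, since the arrays share 2 lines. For FAT4 they were ADSS1 (0.958), TMPRSS6 (0.954) and TMEM242 (0.951), and 4 genes exceeded 0.95. For FAT2 they were SCAP (1.000), TNFSF10 (0.999) and IPO5 (0.999), but 2385 genes exceeded 0.95, and for CELSR1 PNPT1, MAGT1 and PDCD6 (0.999 each) with 2003 above it. The patterns of FAT2 and CELSR1 were thus shared by many genes that part the lines, and that of FAT4 by few. For FAT1 the nearest were RPS14 (0.997), CAP2 (0.993) and VANGL1 (0.990), the last a core polarity gene, but 387 genes exceeded 0.95. FJX1 was nearest to ZNF512B, TAOK1, a kinase upstream in the Hippo pathway, and RAD54L2 (0.994, 0.993 and 0.992), with 316 genes above 0.95. CELSR2 was nearest to KLHL17, UBE2R2 and POLR2E (0.989, 0.988 and 0.982), with 25 above it. DCHS1 was nearest to LCN10, MOB2 and ITGA11 (0.956, 0.956 and 0.947), with 2 above it.

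Planar cell polarity genes, the partners of CELSR proteins, were measured for 24 of 28 above the filter. In KYSE30 5 had a positive and 3 a negative change past the threshold, 33.3% beside 16.5% of all genes, with a median change of -0.05 beside 0.01. These 8 include WNT5A and ANKRD6, whose groups both lay below the filter value, so no change is read from them. WNT5B, a noncanonical Wnt ligand, rose by 0.84 ± 0.11 (adjusted p = 0.00318), and PRICKLE1, a cytoplasmic core protein, by 0.42 ± 0.07 (adjusted p = 0.0102). DVL2, a Dishevelled scaffold, changed by -0.32 (adjusted p = 0.00849). The call of WNT5B held in 16 of 16 alternatives. That of PRICKLE1 was lost with the mean of its probe sets (adjusted p = 0.0865), without 30U replicate 2 (0.0727) and without 30D replicate 2 (0.0719). DVL2 missed the threshold when either 30U array (0.052 and 0.0665) or the first 30D array (0.0681) was left out.

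In KYSE180 3 polarity genes rose and 0 of 24 fell by limma, 12.5% beside 3.75% of all genes. The median change was 0.05 beside 0.02. The unadjusted p was under 0.05 for 7 higher and 1 lower, but in this line FAT2, at an unadjusted p of 0.051, ranked 2750 of 14180 genes. PRICKLE1 rose again, from 7.03 to 7.67 (0.64 ± 0.07, adjusted p = 0.00534), ANKRD6, the relative of Drosophila Diego, by 0.45 ± 0.07 (adjusted p = 0.014) and VANGL1 by 0.27 ± 0.05 (adjusted p = 0.0371). Once the parental population was blocked, the adjusted p was 0.0601 for ANKRD6 and 0.107 for VANGL1. ANKRD6 also missed the threshold without 180U replicate 2 (0.0731) or 180D replicate 1 (0.0848), and VANGL1 without any 1 of the 8 arrays (0.08 to 0.125), while PRICKLE1 kept its call in 16 of 16 alternatives. PRICKLE1 thus passed in both lines, whereas each of the 7 genes passed in at most 1.

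Between the lines 10 polarity genes were higher and 12 lower in KYSE180, 91.7% beside 67.1% of all genes. WNT5A, the ligand of noncanonical Wnt signalling, was at least 85.0-fold higher in KYSE180 and VANGL2, a core membrane protein, at least 14.9-fold, since both lay below the filter value in KYSE30 and the fold is measured from that value. PRICKLE1 (-1.58 ± 0.07, adjusted p = 1.29e-07) and DAAM1, a formin (-1.38 ± 0.06, adjusted p = 1.03e-07), were lower there. VANGL1, the relative of VANGL2, was lower in KYSE180 too (-0.60 ± 0.05, limma adjusted p = 1.23e-05). CELSR1, which acts with VANGL proteins in the polarity complex, was thus higher in the line with the higher VANGL2 and the lower PRICKLE1 and VANGL1.

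Of the cytoplasmic partners of FAT and CELSR cadherins and of related scaffolds, 11 of 11 were tested. MPDZ, a PDZ scaffold of cell junctions, fell in KYSE30 (-0.35 ± 0.06, adjusted p = 0.00832), but on its probe set of largest variance the change was -0.01 (adjusted p = 0.942), and the call was lost when the first 30U array (0.0662) or either 30D array (0.0601 and 0.053) was left out. In KYSE180 0 of 11 passed by limma, with an unadjusted p under 0.05 for 3 higher and 1 lower. An unadjusted p of 0.051, that of FAT2, ranked 2750 of 14180 genes there. Between the lines 5 were higher and 6 lower in KYSE180, among them LIX1L at 2.50 ± 0.15 and the Ena/VASP protein EVL at 1.11 ± 0.08, both higher, and AMOTL1 at -1.77 ± 0.05 and HOMER3 at -1.52 ± 0.05, both lower.

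Few of the Hippo pathway kinases, scaffolds and transcription factors passed the threshold within a line. In KYSE30 1 of 29 tested genes rose, RASSF1 (0.29 ± 0.06, adjusted p = 0.0154, 0.051 once the parental population was blocked), a call lost without any 1 KYSE30 array (0.0551 to 0.112). By limma 0 of 29 fell in either line (unadjusted p under 0.05 for 2 in each). Upwards, 8 in KYSE30 and 7 in KYSE180 had an unadjusted p under 0.05. Such values were common, since the unadjusted p of FJX1 ranked 4031 of 14180 genes in KYSE30 (0.0396) and that of FAT2 ranked 2750 in KYSE180 (0.051). In KYSE180, where FAT4 rose, 1 of 29 rose, the kinase LATS2 (0.38 ± 0.07, adjusted p = 0.0279, 0.0925 with the block), a call lost without any 1 of 7 arrays, all but 180D replicate 2 (0.0621 to 0.117). The shares, 3.45% in each line, compare with 16.5% and 3.75% of all genes. Between the lines 10 were higher and 18 lower in KYSE180. TEAD2, a DNA-binding partner of YAP, was 5.79-fold higher (2.53, or 1.12 with the mean of its probe sets), and AMOTL2 and LATS2 were 4.27-fold and 3.59-fold lower. The other TEAD genes did not all follow TEAD2, with TEAD1 (-1.30) and TEAD3 (-0.38) lower in KYSE180 and TEAD4 (0.56) higher.

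Targets of YAP and TEAD, 20 of 21 of them tested, moved in both directions. In KYSE30 3 rose and 3 fell, 30.0% beside 16.5% of all genes, with a median of 0.02 beside 0.01. ANKRD1, a target induced by YAP, fell 3.05-fold (-1.61 ± 0.05, adjusted p = 1.74e-05) and CCN2, a matricellular protein, 1.93-fold (-0.95 ± 0.17, adjusted p = 0.0117), a call lost without any 1 KYSE30 array (adjusted p from 0.0546 to 0.0661). TGFB2 changed by -0.81 (adjusted p = 0.0022), or -0.42 on its probe set of largest variance (0.06), while F3, the tissue factor gene, rose by 0.38 ± 0.05. CCN1 (0.37) and NT5E (0.54) rose as well, CCN1 with a call lost when either 30U array (adjusted p = 0.0661 and 0.142) or the first 30D array (0.14) was left out. NT5E passed with an adjusted p of 0.0315 that was 0.0748 once the parental population was blocked and 0.106 to 0.14 without any 1 KYSE30 array. With the mean of its probe sets it changed by 0.27 (0.132).

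In KYSE180 6 targets had a positive and 1 a negative change past the threshold, 35.0% beside 3.75% of all genes, with a median of 0.11 beside 0.02. The share is a description of the list and was not tested. RBMS3, an RNA-binding protein, rose 2.58-fold (1.37 ± 0.15, adjusted p = 0.00503) and IGFBP3, a binding protein of insulin-like growth factors, 1.59-fold (0.67 ± 0.06, adjusted p = 0.00218). The receptor kinase AXL rose by 0.82 ± 0.16 (adjusted p = 0.0377) but not with the mean of all its probe sets (adjusted p = 0.342) or without any 1 of 7 arrays, all but 180U replicate 2 (0.0633 to 0.174). F3 rose by 0.60, LATS2 is counted here too, and ANKRD1, counted among the 6, lay below the filter value in both KYSE180 groups, so no change is read from it. NT5E fell 2.25-fold (-1.17 ± 0.13, adjusted p = 0.00501), the opposite of its rise in KYSE30, and the difference of the changes was -1.71 ± 0.19 (adjusted p = 0.00237). With the mean of its probe sets the change was -0.40 (adjusted p = 0.105) and the difference -0.67 (0.0318). The change of CCN2 also differed between the lines, by 1.67 ± 0.24 (adjusted p = 0.00719).

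**Figure D3:**
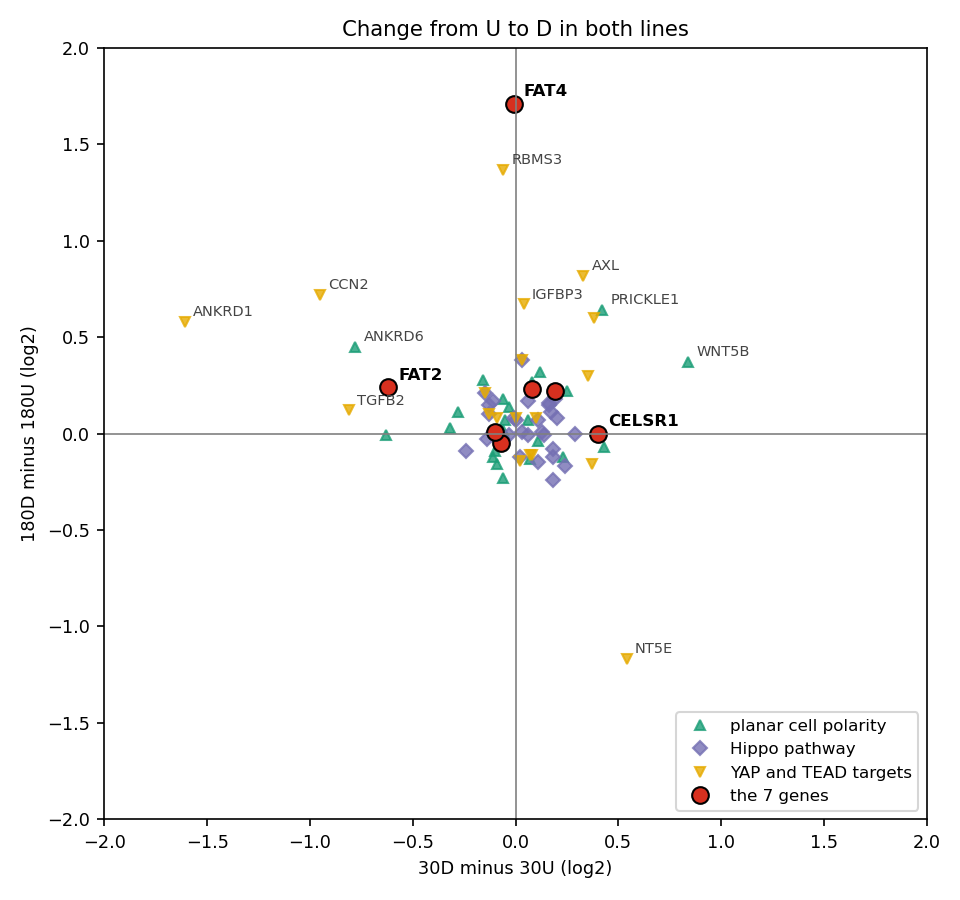
Change from U to D in KYSE30 (horizontal) and KYSE180 (vertical), both in log2, for the tested polarity genes, Hippo genes and YAP and TEAD targets and for the 7 genes, whose points are round. FAT4 lies at the top of the vertical axis with RBMS3, while Hippo genes gather near 0 in both lines. ANKRD6, WNT5A, VANGL2 and RBMS3 in both KYSE30 groups and ANKRD1 and TGFB2 in both KYSE180 groups lay below the filter value.

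Between the lines 16 of the 20 targets were lower and 3 higher in KYSE180, 95.0% beside 67.1% of all genes, of which 31.0% were lower, with a median difference of -1.72 beside 0.05 over all genes. AXL (-5.69 ± 0.14), NT5E (-5.51 ± 0.31) and CCN1 (-4.18 ± 0.11) had the largest differences, or -3.97 for AXL and -4.53 for NT5E with the mean of their probe sets. The 16 include TGFB2, at least 10-fold lower, and ANKRD1, at least 2.11-fold lower, whose KYSE180 levels lay below the filter value. RBMS3, at least 4.69-fold, FOXF2 (2.26 ± 0.07) and CCDC80 (0.24 ± 0.09) were higher, the last with a call lost in 8 of 17 alternatives (adjusted p up to 0.166). FAT1, FJX1, CELSR1 and FAT2 thus differed between lines whose YAP and TEAD targets also differed, and no relation between them was tested.

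Of the classical cadherins and catenins 8 of 12 were tested. In KYSE30 1 of the 8 passed, plakoglobin, JUP (0.45 ± 0.08, adjusted p = 0.0113), a call lost without any 1 KYSE30 array (adjusted p from 0.0632 to 0.0671). In KYSE180 1 of the 8 passed, N-cadherin, CDH2, rising from 6.18 to 7.05 (0.87 ± 0.12, adjusted p = 0.00984) in the same cells as FAT4. The rise of CDH2 missed the threshold without 180U replicate 1 (adjusted p = 0.0575) or 180U replicate 2 (adjusted p = 0.0731). Between the lines CDH3 (-1.16 ± 0.06) and CTNNA1 (-1.67 ± 0.05) were lower in KYSE180 and CDH2 (0.52 ± 0.14) and JUP (0.39 ± 0.12) higher. CDH2 missed the threshold between the U groups alone (adjusted p = 0.0889) and JUP between the D groups alone (0.382) or without 180U replicate 1 (0.0501), and CTNNB1 was 0.26 higher on the probe set used and -0.86 on that of largest variance.

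**Figure D4:**
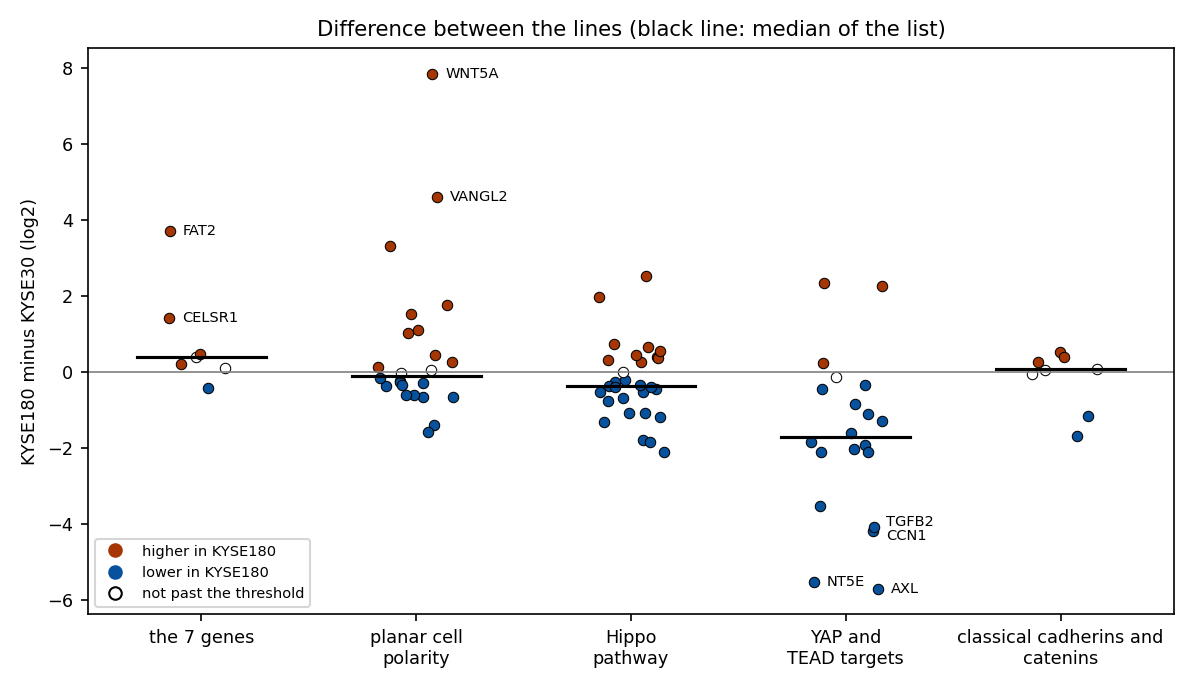
Difference between the lines (KYSE180 minus KYSE30, log2) for the 7 genes and the tested genes of 4 lists, 1 point per gene, with the list median as a black line. Filled points passed an adjusted p of 0.05. FAT2 and CELSR1 stand highest among the 7, at 3.72 and 1.42, and the YAP and TEAD targets lie mostly below 0 with a median of -1.72. The fitted values of WNT5A, VANGL2, ANKRD6 and RBMS3 include a KYSE30 level, and those of TGFB2 and ANKRD1 a KYSE180 level, below the filter value.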

How the data were processed

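Values were the authors' deposited log2 expression values of 54675 probe sets on 8 arrays, made with RMA per the submitters' processing notes. RMA equalises the distributions of the arrays, so a change in total RNA would go unseen, and it compresses low signals. The RMA release was not given in the sources used here. Of the probe sets 41091 had 1 gene symbol, 1801 several, 11721 had no symbol listed, and 62 were control probe sets. Current symbols came from a RefSeq table by Entrez ID (41037 matched).

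Each gene was read from its probe set with the highest mean. Probe sets under the 40th percentile of means (4.46) were left out, which left 14180 genes. This value stands in for background and is not a detection call. Where 1 group compared lay below it, the fold was measured from it.

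Tests used limma 3.58.1 in R 4.3.3 (lmFit, eBayes, two-sided, Benjamini-Hochberg). A fit of 4 group means gave the changes within lines and their difference, and an additive fit of line and fraction gave the line difference and the later comparison over both lines. Scripts were tested on simulated data. Each p-value of the 4-mean fit reflects the spread between separately selected sublines, and 2 arrays per group limit the precision. The additive fit counts the U and D arrays of a population as separate units. Its spread also holds any difference of the D minus U changes between the lines. The SE of FAT4 was 0.31 there and 0.10 within a line.

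The labels tie each U subline to a D subline by parental population. Deviations of paired arrays from their group means correlated at -0.023 in KYSE30 and 0.02 in KYSE180, and the population entered as a block in an alternative fit.

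Members and lists were chosen with earlier results of these data known. In each list and comparison genes were named from among the 3 with the largest change past the threshold in each direction, and other genes named were chosen after their values were seen. A result on 1 further item is not reported here, though counts over lists and all genes include it. Other alternatives were filters, probe set choice, centring, an intensity trend, the arrays used and leaving out each array. Probe sets of CDH19, an older symbol of DCHS1, carry another Entrez ID and were not used. The markers of immune, endothelial and neural or melanocytic cells had log2 summed levels of 7.18 to 7.38, 7.90 to 8.15 and 12.01 to 12.16. In the last of these TUBB3 alone read 11.65 to 11.88. The simple epithelial markers parted the lines, with 14.23 to 14.37 in KYSE30 and 12.69 to 12.85 in KYSE180.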

Additional observations from a re-analysis of the deposited data

Results flagged for a closer look

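The changes from U to D of 3 genes differed between the lines by the limma test of the difference itself (KYSE180 minus KYSE30). FAT4 differed by 1.72 ± 0.15 (adjusted p = 0.000894), with a rise in both KYSE180 pairs of sublines and changes of 0.10 and -0.12 in the KYSE30 pairs. FAT2 differed by 0.86 ± 0.14 (adjusted p = 0.0115), with a fall in both KYSE30 pairs and changes of 0.09 and 0.38 in the KYSE180 pairs. CELSR1 differed by -0.40 ± 0.09 (adjusted p = 0.0343), with 0.39 and 0.41 in the KYSE30 pairs and -0.09 and 0.10 in the KYSE180 pairs. Its call was lost without the filter or with the parental population as a block, while those of FAT4 and FAT2 were kept.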

How the results depend on the processing

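Of 563 refits of the 7 genes under another setting, 522 kept their direction and their side of the threshold. Most of the results refitted had not passed the threshold in the main fit, and some settings could not change a value. The count is therefore no measure of how firm the calls are. FAT4 kept its rise in KYSE180 in 15 of 15 alternatives (1.56 to 1.86, adjusted p up to 0.00721), and FAT2 its fall in KYSE30 in 16 of 16 (adjusted p up to 0.0495). FAT4 and FAT2 have a single probe set each, so the choices of probe set could not change their levels. Leaving out an array of the other line could not change the size of either change. FAT4, with a mean of 5.32, lay below the stricter filter of 5.7 and was not tested there. CELSR1 kept the rise in KYSE30 in 14 of 16 and the difference of the changes in 6 of 15. The number of genes past the threshold in KYSE180, 532, became 311 without a filter, 1069 with an intensity trend, 195 with the arrays of that line alone and 209 to 502 without 1 array. In KYSE30 it ranged from 834 to 2553 without 1 array. For the difference of the changes it was 1142 without a filter, 2700 with the trend and 727 to 1702 without 1 array, and over both lines 195 with the trend and 16 to 77 without 1 array. Several small changes turned in sign, none past the threshold except 1 of FAT4 and 2 of CTNNB1. With centred arrays CELSR1 and CELSR2 read -0.04 and -0.03 in KYSE180. Without 1 array the range was -0.06 to 0.07 for CELSR1, -0.08 to 0.10 for CELSR2 and -0.13 to 0.03 for DCHS1 in KYSE180, -0.17 to 0.02 for DCHS1 and -0.07 to 0.05 for FAT4 in KYSE30, and -0.07 to 0.12 for DCHS1 and -0.08 to 0.13 for FJX1 in the difference, where the other DCHS1 probe set gave -0.17. FAT4 differed between the lines by -0.46 among the U arrays. CTNNB1 differed by -0.22 with the mean of its probe sets and -0.86 with that of largest variance, MPDZ by -0.07 in the difference with the latter, and WNT5A by -0.05 in KYSE30 with the former. The cause of these changes was not tested.

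With the parental population as a replicate block, the labels' own pairing, 230 genes passed in KYSE180, 213 of them among the 532, 1011 for the difference, 954 of them among the 1723, and 0 over both lines, where 1659 genes had an unadjusted p under 0.05 by limma. For the line difference the block entered as a correlation within populations, estimated at -0.37, and 10359 genes passed in place of 9518. Of the calls of the 7 genes the block ended 1, the difference of the changes of CELSR1.

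Dim signals limit DCHS1, FAT4 in 180U and FAT2 in 30D, where RMA compresses differences.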
